A study of Mus musculus with 12 samples.

Results

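Aminoacyl-tRNA synthetases are the enzymes that join each amino acid to its transfer RNA (tRNA) before translation. Their genes were chosen by symbol, as a capital letter followed by "ars" with or without a closing 1 or 2, together with Eprs, Farsa and Farsb. This gave 37 of the 32698 named genes of the count table. Of these, 20 encode cytosolic enzymes and 17, whose symbols end in 2, encode mitochondrial enzymes. No measured value was used in the choice. All 37 passed the filter on low counts, and the lowest expected count of any of them in any library was 152.

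The libraries are of naive CD4+ T cells of the mouse, grown under stimulation by anti-CD3 and anti-CD28 antibodies, which stand in for antigen and costimulation. Cells of the genotype labelled Keap-1 KO (KKO) and wild-type (WT) cells were taken at 48 h and at 24 h, with 3 libraries for each of the 4 groups. KEAP1 holds the transcription factor NRF2 for ubiquitination and breakdown, and cells without it accumulate NRF2. All 4 groups had received both antibodies, and no unstimulated cells were compared. The labels do not give the mouse strain, age or sex, the exons removed from Keap1, whether a Cre driver was used, or whether each library of a group is from another mouse. The p-values therefore measure the spread between these libraries, part of which may be technical. Within each group the libraries also differed in their sex-linked transcripts, as given below.

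Every synthetase gene is encoded in the nucleus, and the mitochondrial enzymes are imported to charge the tRNAs that translate the respiratory chain subunits of mitochondrial DNA. In the cytosol, the enzymes for leucine, isoleucine, methionine, glutamine, arginine, lysine, aspartate and, in the fused protein Eprs, glutamate and proline, form the multisynthetase complex with the scaffold proteins Aimp1, Aimp2 and Eef1e1. The others work outside it. Gars and Kars make both the cytosolic and the mitochondrial form of the glycine and lysine enzymes, and mammalian mitochondria obtain glutaminyl-tRNA by way of Ears2 and an amidotransferase. Many cytosolic synthetase genes are known targets of ATF4, the transcription factor of the integrated stress response, which acts when amino acids run short. T cells raise protein synthesis when they are activated.

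The libraries held 17786532 to 32607675 expected counts. Keap1, the targeted gene, lay at 22.5, 20.7 and 20.2 CPM in the KKO libraries and 124, 132 and 122 CPM in the WT libraries at 48 h, and at 16.5, 15.7 and 17.5 CPM in KKO and 106, 109 and 106 CPM in WT at 24 h (CPM, counts per M, or mega, of the TMM-scaled library). A gene was called where edgeR's quasi-likelihood test gave a p under 0.05 after Benjamini-Hochberg adjustment over the 13196 tested genes. Of 9 textbook NRF2 targets, 7 were called higher and 0 lower in KKO at 48 h, and 6 higher and 0 lower at 24 h. The 8 CD4 T cell identity genes summed to 2538 to 2897 CPM over the libraries, with 0 at 0. The 9 B cell markers found in the table summed to 32.0 to 44.6 CPM in KKO and 15.3 to 20.1 CPM in WT at 48 h, and to 26.4 to 35.8 CPM in KKO and 13.3 to 17.8 CPM in WT at 24 h. Of the 8 that were tested, 6 were called higher in KKO at 48 h and 5 at 24 h, with 0 lower. Markers of CD8 T and natural killer cells summed to 73.4 to 99.0 CPM in KKO and 52.4 to 67.0 CPM in WT at 48 h, and to 32.4 to 38.1 CPM in KKO and 20.9 to 29.5 CPM in WT at 24 h. In KKO at 48 h the means were 31.6 CPM for Nkg7, 23.5 CPM for Gzma and 16.0 CPM for Prf1. Those of Cd8b1, Cd8a and Ncr1 were 10.8, 2.32 and 0.116 CPM. Of these 8 markers, 4 were called higher and 1 (Klrk1) lower in KKO than in WT at 48 h, where 24.3% of all tested genes were called. The 12 myeloid and dendritic markers ran from 17.7 to 26.2 CPM in KKO and from 14.3 to 16.4 CPM in WT at 48 h, with 3 of them at 0 in each group, Clec9a and Siglech among them. At 24 h they ran from 15.3 to 16.9 CPM in KKO and from 15.5 to 16.9 CPM in WT, with Clec9a at 0 in both. Of the 4 myeloid and dendritic markers that were tested, 3 (Flt3, Fcer1g and Cd68) were called higher in KKO at 48 h and 0 at 24 h. Xist, which silences an X chromosome in female cells, was found with 0 to 2.83 CPM of 4 Y-linked genes in KKO replicate 2 and in WT replicates 1 and 2, at both times. The Y-linked genes were found with at most 0.285 CPM of Xist in KKO replicate 1 (48 h), KKO replicate 3 (24 h) and WT replicate 3 (both times). The other KKO libraries, replicate 3 (48 h) and replicate 1 (24 h), had Xist and Y-linked transcripts side by side.

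Per kilobase (kb) of the longest annotated transcript, the cytosolic enzymes were the more abundant class. Their level in KKO at 48 h ran from 33.6 CPM per kb for Farsa, the catalytic subunit of the phenylalanine enzyme, to 195 CPM per kb for Gars, with a median of 70.2 CPM per kb over the 20 genes. In WT at 48 h the median was 75.9 CPM per kb. At 24 h the medians were 75.3 CPM per kb in KKO and 74.4 CPM per kb in WT, and the highest gene was Kars, at 207 CPM per kb in KKO and 209.6 CPM per kb in WT. The mitochondrial enzymes other than Lars2, which is treated last, had medians of 7.57 CPM per kb in KKO and 7.21 CPM per kb in WT at 48 h, and 9.90 CPM per kb in both KKO and WT at 24 h. The lowest of these 16 levels in KKO at 48 h was that of Mars2, the methionine enzyme, at 1.13 CPM per kb, and the highest was that of Iars2, the isoleucine enzyme, at 25.1 CPM per kb. In each of the 4 groups the highest of these 16 mitochondrial genes lay below the lowest of the 20 cytosolic genes. With the union of all exons as the length this held at 48 h, while at 24 h Rars2, the arginine enzyme (17.6 CPM per kb in KKO and 18.4 CPM per kb in WT), lay above Cars, the cysteine enzyme (17.2 CPM per kb in KKO and 16.6 CPM per kb in WT). The highest cytosolic level of each group was that of Gars or Kars, which serve both compartments.

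The proximal promoters of the genes were read for the elements of the pathways above. RefSeq (mouse build GRCm38.p6) gave the 250 bases before and 50 bases after the transcript start for 13 cytosolic and 14 mitochondrial genes, in 28 promoters because Aars2 has a pair. The composite element of C/EBP and ATF factors, to which ATF4 binds, was searched as TGATGNAA on both strands. It was present in 5 of 13 cytosolic promoters (38.5%), namely those of Aars, Gars, Iars, Tars and Yars, in 0 of 15 mitochondrial promoters, and in 3.97% of all 32851 promoters. The antioxidant response element core of NRF2, TGACNNNGC, was present in 3 of 13 cytosolic (23.1%), 4 of 15 mitochondrial (26.7%) and 12.4% of all promoters. The 4 mitochondrial promoters are of 3 genes, Aars2 with both of its promoters, Lars2 and Nars2. The E-box CACGTG, which MYC and other factors bind, was present in 4 of 13 cytosolic (30.8%), 1 of 15 mitochondrial (6.67%) and 7.15% of all promoters. The searched elements do not overlap in the stretches printed here. The Aars promoter, from base -150 to base -1 relative to the transcript start (chr8:111033692-111033841, plus strand), is shown because it holds all 3 before the start, in capitals in the order E-box, C/EBP-ATF composite (reverse strand) and antioxidant response element core.
Aars: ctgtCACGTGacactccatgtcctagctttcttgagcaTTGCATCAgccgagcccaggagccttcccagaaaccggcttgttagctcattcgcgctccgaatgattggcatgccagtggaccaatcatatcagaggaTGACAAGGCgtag
The Iars promoter also holds all 3 within its 300 bases, and Aars has a further composite match after its start. The other matches to the composite are shown as 30-base stretches with the match in capitals, so that the shared core can be compared. The Gars stretch is at chr6:55037960-55037989 (plus strand), that of Iars at chr13:49682126-49682155 (plus strand), that of Tars at chr15:11399655-11399684 (minus strand) and that of Yars at chr4:129189895-129189924 (plus strand).
Gars: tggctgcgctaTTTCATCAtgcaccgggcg
Iars: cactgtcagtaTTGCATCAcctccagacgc
Tars: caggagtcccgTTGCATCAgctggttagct
Yars: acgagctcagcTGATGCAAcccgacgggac
The match is on the reverse strand in Gars, Iars and Tars and on the gene's own strand in Yars. In Iars and Yars it lies after the transcript start. A match describes letters in this window and is not a measured binding site.

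At 48 h compared with 24 h, the mitochondrial synthetase genes that changed were lower, apart from Ears2 in WT, and the cytosolic genes that changed went both ways. In KKO, edgeR's quasi-likelihood test called 23 of 37 (62.2%), 5 higher and 18 lower at 48 h, where it called 67.8% of all 13196 tested genes (34.4% higher and 33.4% lower). In WT it called 22 of 37 (59.5%), 8 higher and 14 lower, against 60.8% of all tested genes (31% higher and 29.7% lower). The share of synthetases called was thus near that of all genes in both genotypes. Of the mitochondrial genes, 10 of 17 (58.8%) were called lower and 0 higher in KKO, beside the 33.4% of all tested genes called lower. In WT 10 were called lower and 1 higher, where 29.7% of all tested genes were called lower. Their median log2 fold change, Lars2 included, was -0.35 in KKO and -0.36 in WT, beside medians of 0.00 over all tested genes in both. Without Lars2 it was -0.33 in KKO and -0.32 in WT. Of the cytosolic genes, 5 of 20 were called higher and 8 lower in KKO (median -0.12), and 7 were called higher and 4 lower in WT (median 0.02). The medians kept their signs under the other scalings. In bulk RNA, fewer cells of a type and less RNA per cell cannot be told apart.

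**Figure D1:**
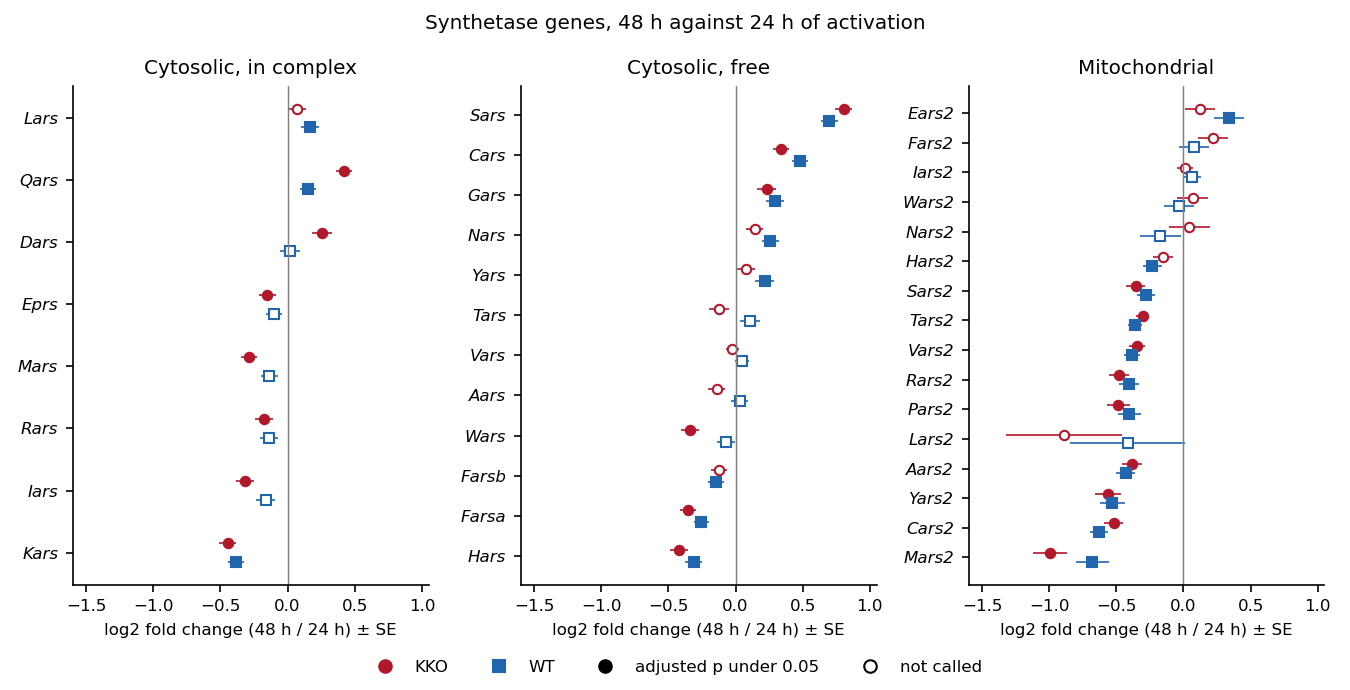
Log2 fold change at 48 h over 24 h of 36 synthetase genes, in KKO and in WT cells (x axis; lines are the standard error of the edgeR fit, filled points are called at an adjusted p under 0.05), with genes grouped by the compartment of the enzyme. Sars stands at 0.80 in KKO and 0.70 in WT, and most mitochondrial genes lie left of 0.

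Sars, the serine enzyme, rose most. It stood at 463, 419.9 and 444 CPM in the KKO libraries at 48 h, against 264, 237 and 259 CPM in KKO at 24 h. In WT it stood at 398, 386 and 433 CPM at 48 h, against 242, 255 and 253 CPM at 24 h. Every 48 h library lay above every 24 h library in each genotype, as was so in one direction or the other for 70.4% of all tested genes in KKO and 68.4% in WT. The difference was 1.75-fold in KKO (log2 fold change 0.80 ± 0.06, SE; adjusted p = 6.97e-08) and 1.62-fold in WT (0.70 ± 0.06; adjusted p = 3.74e-07). Cars, the cysteine enzyme, rose in the same way. It stood at 146, 149 and 135 CPM at 48 h against 119, 110.4 and 111 CPM at 24 h in KKO, and at 156, 146 and 154 CPM at 48 h against 108, 114 and 106 CPM at 24 h in WT. Its log2 fold changes were 0.34 ± 0.06 in KKO (adjusted p = 8.32e-05) and 0.48 ± 0.06 in WT (adjusted p = 4.43e-06).

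Gars and Qars were the other genes called higher at 48 h in both genotypes. Gars, the glycine enzyme of both compartments, stood at 456, 494 and 439 CPM at 48 h against 420.2, 363 and 400.1 CPM at 24 h in KKO, and at 492, 467 and 488 CPM at 48 h against 369, 406 and 402 CPM at 24 h in WT. Its log2 fold changes were 0.23 ± 0.07 in KKO (adjusted p = 0.00699) and 0.30 ± 0.07 in WT (adjusted p = 0.00146). The libraries of the times did not overlap in either genotype. Qars, the glutamine enzyme of the multisynthetase complex, stood at 220.3, 188 and 210.0 CPM at 48 h against 158, 150.3 and 154 CPM at 24 h in KKO, and at 178, 178 and 184 CPM at 48 h against 164, 164 and 157 CPM at 24 h in WT. Its log2 fold changes were 0.42 ± 0.06 in KKO (adjusted p = 2.05e-05) and 0.15 ± 0.06 in WT (adjusted p = 0.0411). Stricter thresholds aside, the Qars call in WT was lost in 8 alternatives, 6 of them fits that left out a library, among them WT replicate 2 or 3 of either time (adjusted p up to 0.102), and with no filter on low counts (adjusted p = 0.118). Dars, the aspartate enzyme, was called higher in KKO alone (0.26 ± 0.07; adjusted p = 0.00621). Its value in WT was 0.02 ± 0.07 (adjusted p = 0.857), and the difference between the genotypes was not called (interaction adjusted p = 0.19). In WT alone the calls were Nars, the asparagine enzyme (0.26 ± 0.06; adjusted p = 0.00286), Yars, the tyrosine enzyme (0.22 ± 0.07; adjusted p = 0.0134), Lars, the leucine enzyme (0.17 ± 0.07; adjusted p = 0.0416), and the mitochondrial glutamate enzyme Ears2 (0.34 ± 0.11; adjusted p = 0.0164). In KKO these had 0.14, 0.08, 0.07 and 0.12, in that order, and their interactions were not called (adjusted p from 0.411 to 0.565). The call of Lars in WT was lost in 9 alternatives, among them the fits without WT replicate 2 or 3 at 24 h or WT replicate 1 or 2 at 48 h (adjusted p up to 0.165).

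Kars, Hars and Farsa were the cytosolic genes called lower at 48 h in both genotypes. Kars, the lysine enzyme of both compartments, stood at 353, 393 and 357 CPM at 48 h against 527, 482 and 495 CPM at 24 h in KKO, and at 405, 392 and 370.0 CPM at 48 h against 495, 514 and 512 CPM at 24 h in WT. It was 1.36-fold lower in KKO (log2 fold change -0.45 ± 0.06; adjusted p = 1.15e-05) and 1.30-fold lower in WT (-0.38 ± 0.06; adjusted p = 7.01e-05), with no overlap of libraries. Kars and Gars, the genes that serve both compartments, therefore moved in opposite directions. Hars, the histidine enzyme, had log2 fold changes of -0.42 ± 0.07 in KKO (adjusted p = 4.02e-05) and -0.31 ± 0.07 in WT (adjusted p = 0.000749). Its transcribed region overlaps that of Hars2 at its 5′ end, and the strand setting of the counting is not given in the sources used here. Farsa had -0.35 ± 0.06 in KKO (adjusted p = 7.78e-05) and -0.25 ± 0.06 in WT (adjusted p = 0.00153). Farsb, the other subunit of the phenylalanine enzyme, was called in WT alone (-0.15 ± 0.06; adjusted p = 0.0493). Stricter thresholds aside, that call was lost in 14 alternatives (adjusted p up to 0.204). Among them were RLE scaling, DESeq2, limma-voom, the stricter filter and the replicate number as a block (adjusted p = 0.0898). The value of Farsb in KKO was -0.13 ± 0.06 (adjusted p = 0.0821).

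The remaining cytosolic genes called lower were called in KKO alone. They were Wars, the tryptophan enzyme (-0.34 ± 0.07; adjusted p = 0.000401), and Iars, Mars, Rars and Eprs of the multisynthetase complex, with log2 fold changes of -0.32, -0.29, -0.17 and -0.15. The calls of Rars (adjusted p = 0.033) and Eprs (adjusted p = 0.0395) were lost in 7 and 12 alternatives, in that order, among them the fits without replicate 1 or replicate 3 of KKO at either time. Without the pair of KKO libraries with Xist and Y-linked transcripts side by side, Rars had -0.09 (adjusted p = 0.356) and Eprs -0.15 (adjusted p = 0.14). In WT the same genes had -0.07, -0.16, -0.13, -0.14 and -0.10 in that order, and for none of the 5 was the difference between the genotypes called. With the replicate number as a block, Iars was also called lower in WT (-0.17; adjusted p = 0.0463). Over the 8 genes of the complex, the calls in KKO were 2 higher and 5 lower, and in WT 2 higher and 1 lower. This is 87.5% called in KKO and 37.5% in WT, beside 67.8% and 60.8% of all tested genes. The count in KKO includes Rars and Eprs, whose calls were lost in the alternatives above. The edgeR interaction was called for 0 of the 8 genes, so a difference between the genotypes is not shown for the complex. Over the 12 cytosolic genes outside the complex, the calls in KKO were 3 higher and 3 lower, and in WT 5 higher and 3 lower. Aars, Tars and Vars, the enzymes for alanine, threonine and valine, were called in neither genotype. In all, 16 genes were called in the same direction in both genotypes, 4 higher and 12 lower, which is 69.6% of the calls in KKO and 72.7% of those in WT, and 0 in opposite directions. This overlap was not counted over all tested genes, so it is not shown to be particular to the synthetases.

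Among the mitochondrial enzymes the largest called fall was that of Mars2. It stood at 11.3, 16.1 and 11.0 CPM at 48 h against 25.0, 26.2 and 24.8 CPM at 24 h in KKO, and at 18.9, 15.1 and 14.7 CPM at 48 h against 25.5, 25.9 and 26.3 CPM at 24 h in WT. Within KKO at 48 h, replicate 2 was the highest library. Mars2 was 1.99-fold lower in KKO (log2 fold change -0.99 ± 0.13; adjusted p = 6.98e-06) and 1.60-fold lower in WT (-0.68 ± 0.12; adjusted p = 0.000255). Cars2, the cysteine enzyme, stood at 25.1, 24.4 and 22.0 CPM at 48 h against 34.2, 33.4 and 34.9 CPM at 24 h in KKO, and at 21.8, 20.9 and 22.1 CPM at 48 h against 34.4, 34.2 and 31.7 CPM at 24 h in WT. Its log2 fold changes were -0.52 ± 0.07 in KKO (adjusted p = 8.55e-06) and -0.63 ± 0.07 in WT (adjusted p = 1.97e-06). Yars2, the tyrosine enzyme, followed with -0.56 ± 0.10 in KKO (adjusted p = 0.00011) and -0.53 ± 0.10 in WT (adjusted p = 0.000222).

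Another 6 mitochondrial genes were called lower in both genotypes. Their log2 fold changes in KKO were -0.49 for Pars2 (proline), -0.48 for Rars2 (arginine), -0.38 for Aars2 (alanine), -0.36 for Sars2 (serine), -0.35 for Vars2 (valine) and -0.30 for Tars2 (threonine). In WT the same genes had -0.41, -0.41, -0.43, -0.28, -0.38 and -0.36 in that order. The largest adjusted p among these 12 values was 0.00216, for Sars2 in WT. Hars2 (histidine) was called lower in WT alone (-0.23 ± 0.07; adjusted p = 0.0115). The difference between the genotypes was not called (interaction adjusted p = 0.69). Fars2, Iars2, Nars2 and Wars2, the enzymes for phenylalanine, isoleucine, asparagine and tryptophan, were called in neither genotype, with log2 fold changes from 0.01 to 0.22 in KKO and from -0.17 to 0.08 in WT. Lars2 was also not called.

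**Figure D2:**
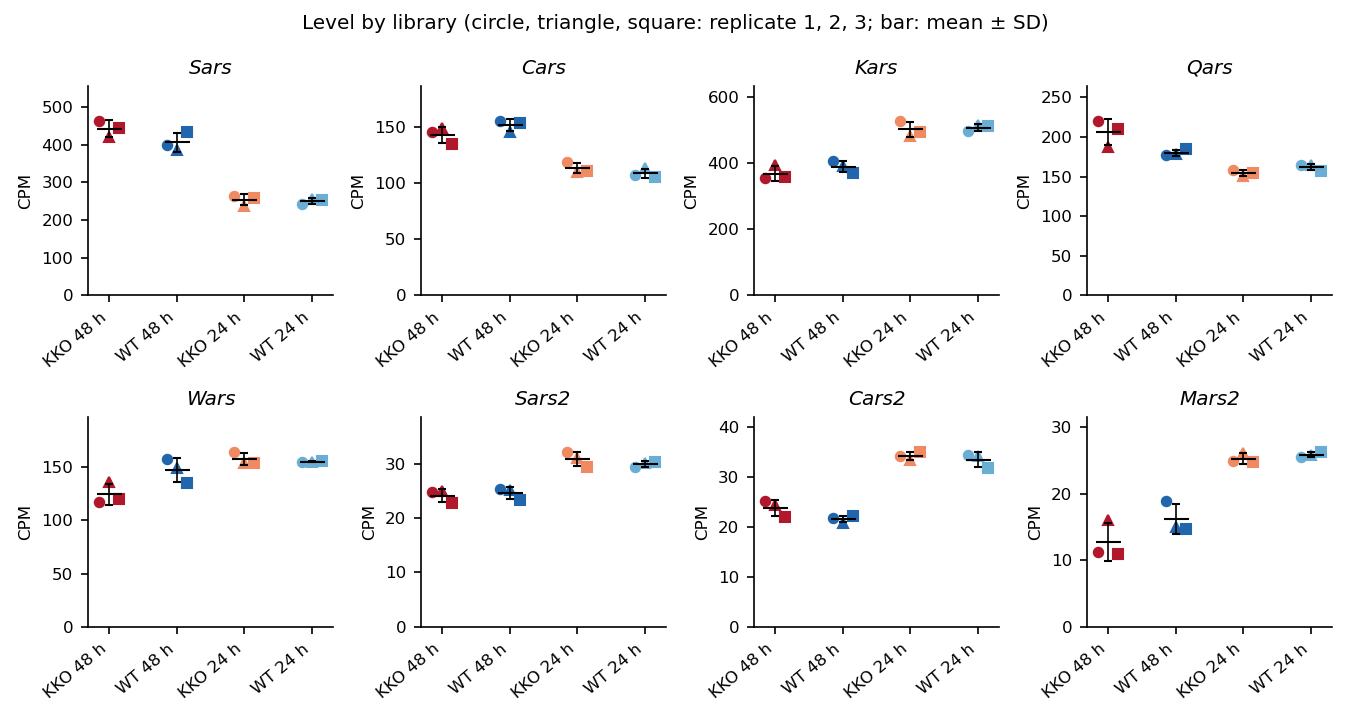
CPM (y axis) of Sars, Cars, Kars, Qars, Wars, Sars2, Cars2 and Mars2 in each of the 12 libraries (points, shaped by replicate), with the mean ± SD of the 3 libraries of each group (bars) and groups along the x axis. In Sars every 48 h library lies above the 24 h libraries of its genotype, and in Kars and Mars2 every 48 h library lies below them.

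For 17 amino acids the table held both a mitochondrial enzyme and its cytosolic counterpart, with Eprs serving as the counterpart of both Ears2 and Pars2. The mitochondrial gene had the lower log2 fold change for 12 of 17 amino acids in KKO and for 12 of 17 in WT, and without leucine, for which Lars2 was not called, for 11 of 16 in each. The exceptions in both genotypes were Ears2, Fars2, Hars2, Iars2 and Wars2. For serine and cysteine the enzymes moved in opposite directions by the test in both genotypes. Sars had 0.80 and Sars2 -0.36 in KKO, and 0.70 and -0.28 in WT. Cars had 0.34 and Cars2 -0.52 in KKO, and 0.48 and -0.63 in WT.

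Other genes of the tRNA charging machinery were read beside the 67.8% of all tested genes called across time in KKO and the 60.8% called in WT. Of the 3 scaffold genes of the complex, Aimp1 was higher at 48 h than at 24 h (log2 fold change 0.47 ± 0.06 in KKO and 0.22 ± 0.06 in WT), while Aimp2 (-0.30 ± 0.07 in KKO and -0.28 ± 0.07 in WT) and Eef1e1 (-0.67 ± 0.07 in KKO and -0.43 ± 0.07 in WT) were lower, and the largest adjusted p of these 6 values was 0.00664. Of 16 charging partners and editing factors, the calls in KKO were 2 higher and 7 lower, and in WT 2 higher and 8 lower, which is 56.2% called in KKO and 62.5% in WT. Among them Gatc, a subunit of the mitochondrial amidotransferase, had -0.65 ± 0.08 in KKO and -0.48 ± 0.08 in WT. Of 10 tested mitochondrial translation factors, 1 was called higher and 5 lower in KKO, and 1 higher and 6 lower in WT, which is 60.0% called in KKO and 70.0% in WT. These shares are near those of all tested genes. Gfm1, the mitochondrial elongation factor G, had -0.96 ± 0.08 in KKO and -0.74 ± 0.08 in WT, and Tufm, the factor that brings charged tRNA to the mitochondrial ribosome, had -0.49 ± 0.06 in KKO and -0.64 ± 0.06 in WT. Mtrf1, the mitochondrial factor called higher, had 0.67 ± 0.16 in KKO and 0.41 ± 0.16 in WT. Of 11 tested cytosolic elongation and termination factors, the calls in KKO were 5 higher and 6 lower, and in WT 4 higher and 6 lower. Eef1a1, which brings charged tRNA to the cytosolic ribosome, had 0.80 ± 0.08 in KKO. Among the lower genes, Dph2 had -0.82 ± 0.10 in KKO and -0.61 ± 0.10 in WT. Gspt1 had -0.73 ± 0.08 in KKO and -0.54 ± 0.08 in WT.

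The synthetases were set beside other ATF4 targets. Of 32 genes of the integrated stress response outside the synthetases, 23 were called higher and 4 lower at 48 h in KKO (median log2 fold change 0.72), and 26 higher and 1 lower in WT (median 0.83). Ddit3, which encodes the stress factor CHOP, stood at 39.2, 31.3 and 37.0 CPM at 48 h against 3.97, 3.24 and 4.34 CPM at 24 h in KKO, a log2 fold change of 3.22 ± 0.13. Trib3, a pseudokinase gene induced by ATF4, had 3.08 ± 0.22 in WT. Of the 13 cytosolic synthetases often listed as ATF4 targets, 3 were called higher and 4 lower in KKO (median -0.02), and 6 higher and 0 lower in WT (median 0.11). The share called in either direction was 53.8% in KKO and 46.2% in WT, below the 67.8% and 60.8% of all tested genes. In WT all 6 calls were higher, so the 46.2% called higher lay above the 31% of all tested genes called higher. These 6 include Lars, whose call was lost in 9 alternatives. In KKO no such excess was seen, with 3 of 13 called higher and 4 lower, beside 34.4% and 33.4% of all tested genes. The 7 other cytosolic genes had 2 higher and 4 lower in KKO (median -0.17), and 1 higher and 4 lower in WT (median -0.15), beside the shares of all tested genes given above (in KKO 34.4% higher and 33.4% lower, in WT 31% higher and 29.7% lower). Of the 5 genes whose promoters hold the composite element printed above, Gars was called higher in both genotypes, Yars higher in WT, Iars lower in KKO, and Aars and Tars in neither. Among 13 genes of amino acid sensing and stress kinases the calls were 5 higher and 7 lower for KKO, and 5 higher and 6 lower for WT, which is 92.3% called in KKO and 84.6% in WT. Myc had -0.46 ± 0.09 in KKO (adjusted p = 0.000196) and -0.02 ± 0.08 in WT (adjusted p = 0.871). The difference between the genotypes was not called for Myc (interaction -0.44 ± 0.12, adjusted p = 0.0507). Mycn and Max were listed with Myc. Mycn was called higher at 48 h, with 3.75 ± 0.45 in KKO and 2.91 ± 0.57 in WT, from means of 0.228 and 0.104 CPM at 24 h. Max was called lower, with -0.72 ± 0.07 in KKO and -0.44 ± 0.07 in WT.

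KKO and WT libraries of 24 h were compared to see whether loss of Keap1 moves the synthetases early in activation. Apart from Lars2, the log2 fold changes ran from -0.13 for Hars2 to 0.08 for Tars, with medians of 0.01 over the 20 cytosolic and -0.03 over the other 16 mitochondrial genes. EdgeR called 0 of 37, DESeq2 0 and limma-voom 0, and 0 had an unadjusted p under 0.05, where edgeR called 2.33% of all tested genes (1.89% higher and 0.432% lower). Hars2 was the 1 gene whose libraries did not overlap, at 25.8, 24.2 and 25.8 CPM in KKO and 28.9, 27.0 and 27.1 CPM in WT, where 19.4% of all tested genes did not overlap. Summed over the 20 cytosolic genes, the KKO libraries held 5713, 5295 and 5507 CPM and the WT libraries 5421, 5556 and 5489 CPM, so the groups overlapped. Of the 32 stress response genes outside the synthetases 1 was called, Eif4ebp1, a translation repressor gene, higher in KKO (0.47 ± 0.11; adjusted p = 0.0349). The standard errors of these log2 fold changes ran from 0.05 to 0.07 over the cytosolic genes.

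At 48 h edgeR called 2 of 37 synthetase genes (5.41%), where it called 24.3% of all tested genes (12.4% higher and 11.9% lower). Wars was lower and Qars higher in KKO. Wars, which interferon gamma is known to induce in human cells, stood at 117, 136 and 120.1 CPM in KKO and 158, 149 and 135 CPM in WT. KKO replicate 2 was inside the WT range and the other KKO libraries were below it. The log2 fold change was -0.24 ± 0.07 (1.18-fold lower; adjusted p = 0.0185). Qars stood at 220.3, 188 and 210.0 CPM in KKO and 178, 178 and 184 CPM in WT, with every KKO library above every WT library, a log2 fold change of 0.20 ± 0.06 (1.15-fold higher; adjusted p = 0.0304). Both calls were lost (0 of 37 called) in a fit of the 6 libraries of 48 h alone, and in fits without KKO replicate 1, KKO replicate 3, WT replicate 1 or WT replicate 2 at 48 h. The same held without the pair of KKO libraries with Xist and Y-linked transcripts side by side, and the Qars call alone was lost with no filter on low counts (adjusted p = 0.063). In the fits that lost a call, the log2 fold change ran from -0.25 to -0.20 for Wars and from 0.15 to 0.19 for Qars. The KKO libraries of 48 h also enter the comparison across time, in which Wars and Qars are described above.

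A further 4 genes had an unadjusted p under 0.05 and missed the threshold, namely Mars2 (-0.35 ± 0.13), Aars (-0.15 ± 0.06) and Mars (-0.14 ± 0.06), with lower means in KKO, and Dars (0.17 ± 0.07), with a higher mean. Their adjusted p ran from 0.0657 to 0.12. Of the 20 cytosolic genes, 17 had log2 fold changes below 0 (16 with upper-quartile scaling), and Qars, Dars and Sars had values above 0. The median was -0.08, beside 0.00 over all tested genes. The groups did not overlap in 3 of 37 synthetase genes, beside 33.2% of all tested genes. The mitochondrial genes had a median of -0.03 with Lars2, and 0 of 17 were called. Of the scaffold genes, Aimp1 was higher in KKO (0.20 ± 0.06; adjusted p = 0.0374) and Eef1e1 lower (-0.23 ± 0.07; adjusted p = 0.0269). Eef1a1 (0.26 ± 0.08; adjusted p = 0.0241) and Eef2 (0.23 ± 0.06; adjusted p = 0.0153), the main cytosolic elongation factor genes, were higher, and Myc (-0.45 ± 0.09; adjusted p = 0.00232) was lower in KKO. Max was also lower (-0.44 ± 0.07, adjusted p = 0.000601). Mycn was higher (1.94 ± 0.39, adjusted p = 0.00328), at means of 3.08 CPM in KKO and 0.812 CPM in WT. Among the 32 stress response genes the calls were 6 higher and 6 lower, for example Ddit3 (0.44 ± 0.11) and the glycine transporter gene Slc6a9 (-0.42 ± 0.11). The part of the B cell and other marker sums given above in these differences was not tested.

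**Figure D3:**
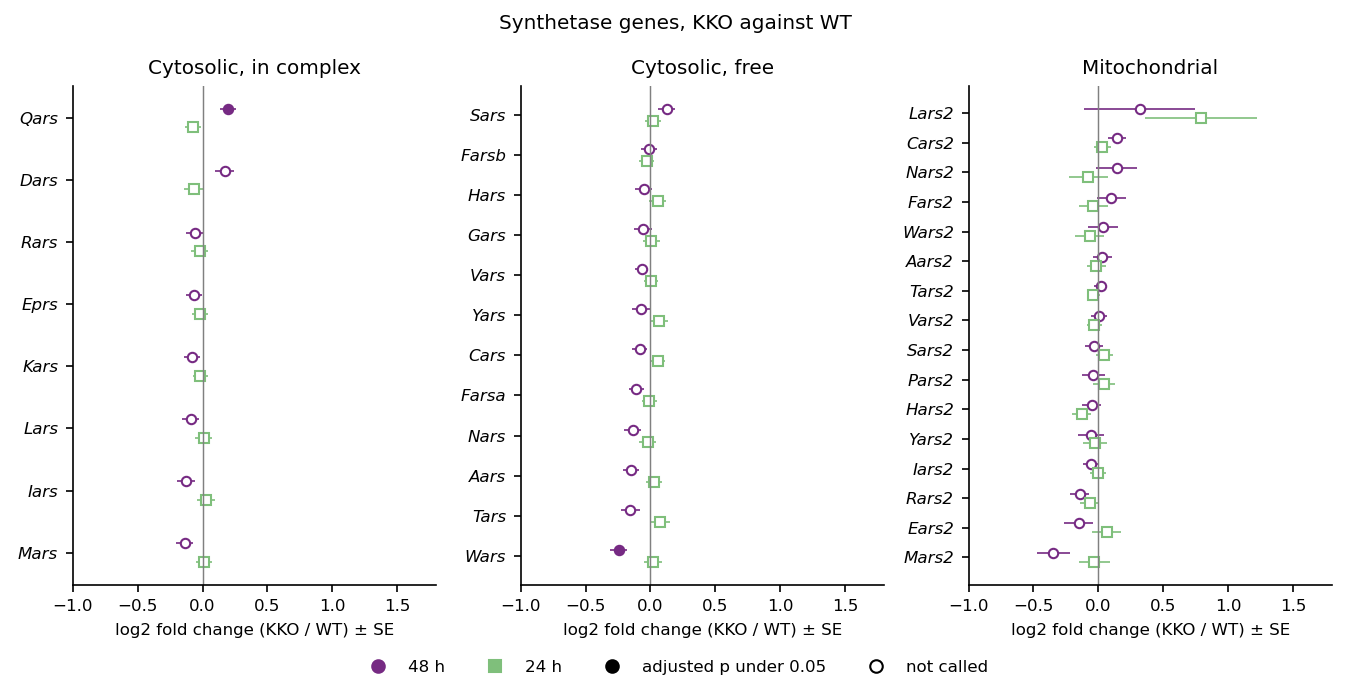
Log2 fold change of KKO over WT for 36 synthetase genes at 48 h and at 24 h (x axis; lines are the standard error of the edgeR fit, filled points are called at an adjusted p under 0.05). At 48 h Wars at -0.24 and Qars at 0.20 are filled, and at 24 h no point is.

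KKO replicate 2 at 48 h stood apart from the other KKO libraries of that time across the cytosolic synthetases. It was above both KKO replicates 1 and 3 in 17 of 20 genes and below both in the other 3, and it was inside the WT range in 14. Relative to the WT mean, the median log2 ratio over the 20 genes was -0.12 in KKO replicate 1, 0.01 in replicate 2 and -0.15 in replicate 3. KKO replicates 1 and 3 were both below all WT libraries in 16 genes, of which replicate 2 was also below them in 1. They were both above all WT libraries in 3 genes, of which replicate 2 was also above them in 1. For example, Tars stood at 206, 239.8 and 205 CPM in KKO and 263, 239 and 225 CPM in WT, and Iars at 306, 352 and 314 CPM in KKO and 388, 339 and 335 CPM in WT. Without KKO replicate 2, 16 of 37 synthetases were called, Qars and Dars higher and 14 lower, where 39.6% of all tested genes were called. Among the lower genes in that fit were Wars (-0.33), Mars2 (-0.55), Tars (-0.25), Nars (-0.20) and Farsa (-0.19). With KKO replicate 2 kept, 24.3% of all tested genes were called, so its effect reached beyond the synthetases. The counts of genes by library given here were not made over all tested genes. They are therefore not shown to be particular to the cytosolic synthetases.

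KKO replicate 2 is the only KKO library of 48 h with Xist and next to no Y-linked transcripts, at 288 CPM of Xist and 2.83 CPM of the Y-linked genes. KKO replicates 1 and 3 held 181 and 149 CPM of the Y-linked genes, with 0.0983 and 105.0 CPM of Xist. Against the mean of WT replicates 1 and 2, which also held Xist, KKO replicate 2 had a median log2 ratio of -0.01 over the 20 cytosolic genes, with 11 below 0. Against WT replicate 3, which held Y-linked transcripts, KKO replicates 1 and 3 had medians of -0.08 and -0.10, each with 17 of 20 genes below 0. These ratios rest on 1 library a side or nearly so and have no replicate check. The part of the sex-linked difference in the result was not tested.

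**Figure D4:**
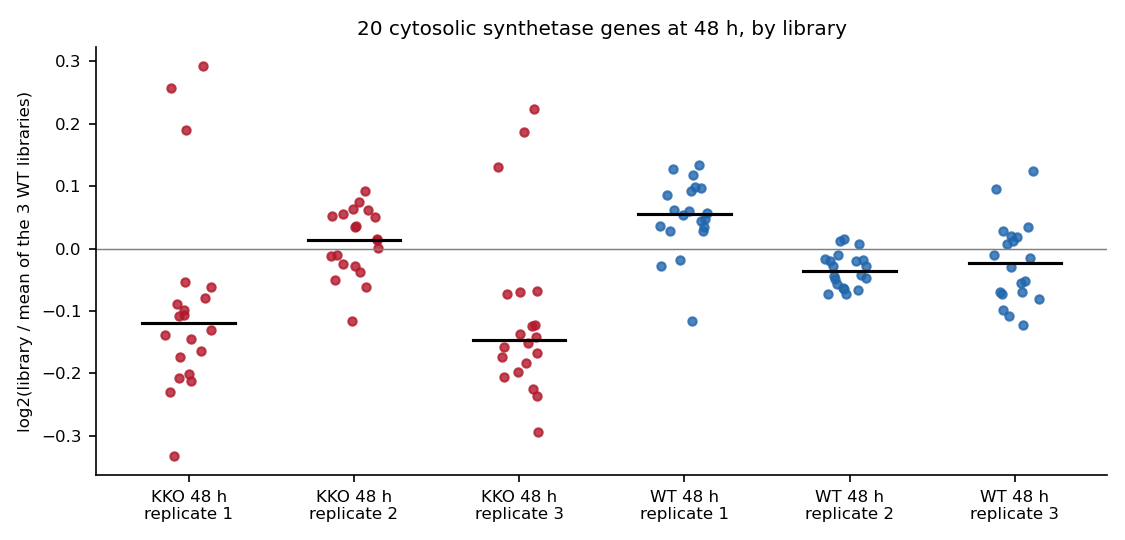
Log2 ratio of each 48 h library to the mean of the 3 WT libraries of 48 h (y axis) for the 20 cytosolic synthetase genes (points), with the median as a line and libraries along the x axis. The medians are -0.12, 0.01 and -0.15 for KKO replicates 1, 2 and 3, and KKO replicate 2 lies among the WT libraries.

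The difference between the genotype effects at 48 h and at 24 h was tested as an interaction. EdgeR called 0 of 37 synthetase genes, where it called 4.18% of all tested genes (1.46% above 0 and 2.72% below), 4 had an unadjusted p under 0.05, DESeq2 called 1 (Qars) and limma-voom 0. The 4 were Qars (0.27 ± 0.09; adjusted p = 0.0859), Wars (-0.27 ± 0.10; adjusted p = 0.119), Dars (0.24 ± 0.10; adjusted p = 0.19) and Tars (-0.23 ± 0.10; adjusted p = 0.203). Without KKO replicate 2 at 48 h, 9 were called, Qars and Dars above 0 and 7 below, where 23.8% of all tested genes were called. No change in the genotype effect over time was thus called by edgeR or limma-voom with all 12 libraries, and the edgeR count rests on KKO replicate 2. In the complete fit the interaction called Chac1, a glutathione-degrading enzyme gene and ATF4 target (-1.03 ± 0.25; adjusted p = 0.0327), and Eif2ak2, the gene of the double-stranded RNA kinase PKR (-1.19 ± 0.16; adjusted p = 0.00206).

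Lars2, the mitochondrial leucine enzyme, behaved unlike the other 36 genes. It stood at 416, 432 and 275 CPM in KKO and 245, 312 and 344 CPM in WT at 48 h, and at 304, 603 and 1175 CPM in KKO and 373, 354 and 475 CPM in WT at 24 h. In KKO at 24 h the highest library was 3.86 times the lowest, where the widest spread of any other synthetase gene in that group was 1.19 times (Pars2). Its level of 178 CPM per kb of the longest transcript in KKO at 24 h had 1 of the 20 cytosolic genes, Kars, above it. With the union of all exons as the length it was 62.6 CPM per kb, with 8 cytosolic genes above it, and without its highest library it was 117 CPM per kb of the longest transcript, with 5 above it. The log2 fold change was not called in any comparison, and was -0.89 ± 0.43 for 48 h over 24 h in KKO (adjusted p = 0.0978) and 0.79 ± 0.43 for KKO over WT at 24 h (adjusted p = 0.606).

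Rn45s, the precursor of ribosomal RNA, had 5613, 10239 and 17757 CPM in KKO replicates 1, 2 and 3 at 24 h, in the order of their Lars2 values. AK155692, a transcript that the table names by its GenBank clone, had 634, 1323 and 2807 CPM in the same libraries. Over the 12 libraries, Lars2 stood at 41.9 to 49.4% of AK155692. It stood at 8.19 to 9.96% of Rn45s in the 6 libraries of 48 h and at 5.08 to 6.62% in the 6 libraries of 24 h, with no overlap of the times. The share of Lars2 counts that came from other transcripts was not tested. The Lars2 values are therefore given here and left out of the class levels above.

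**Figure D5:**
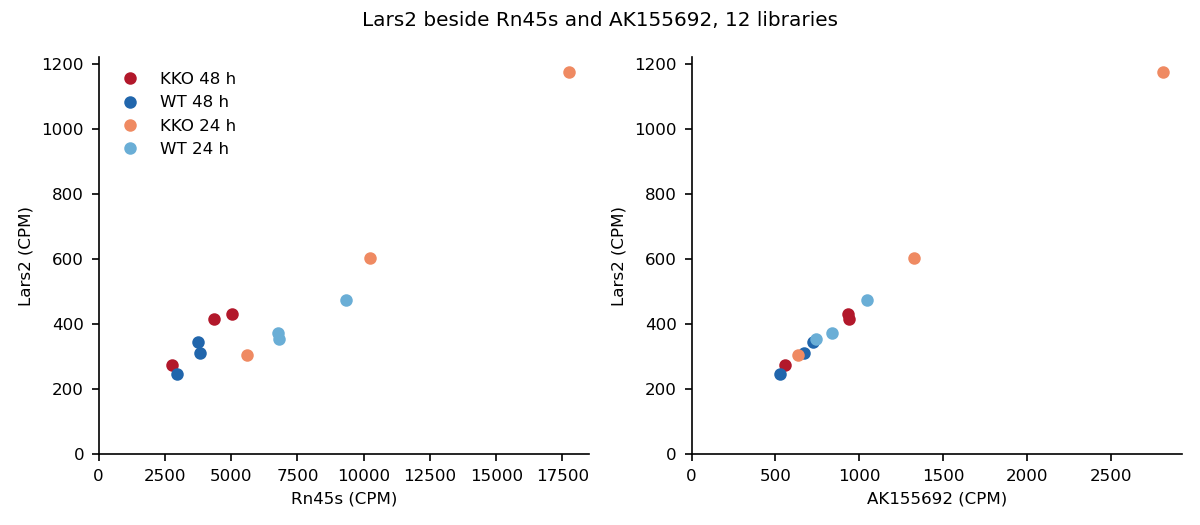
CPM of Lars2 (y axis) against CPM of Rn45s and of AK155692 (x axes) in the 12 libraries (points, coloured by group). Lars2 lies at a like share of AK155692 at both times and at a lower share of Rn45s at 24 h, and KKO replicates 2 and 3 at 24 h have the highest values of all 3, at 603 and 1175 CPM of Lars2.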

How the data were processed

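RNA from mouse CD4+ T cells was measured in 12 libraries, 3 for each group of genotype and time. The submitters' processing notes name FastQC for read quality, RSEM for counting and mm10 as the mouse build. A human reference is named in the design text of the series, while the organism label and the gene symbols are of mouse. Not given in the sources used here were the RSEM version, the aligner and the annotation. The authors deposited expected counts per gene, unnormalised, in which RSEM divides reads that match several genes. Library totals were 17786532 to 32607675 counts, and 10.8 to 12.7% of values were not whole. The table also holds 6 columns that no sample label describes, which were not used, 27 rows whose names had turned into dates, and 1 row named unknown, at most 6.13e-06% of a library, which was left out.

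After rounding, the expected counts were tested in R 4.3.3 with edgeR 4.0.16. FilterByExpr on the 4 groups left 13196 genes. TMM factors (0.979 to 1.03), robust quasi-likelihood dispersions and F tests were used in a single fit of all 12 libraries with 8 residual degrees of freedom, with Benjamini-Hochberg adjustment over all tested genes, 2-sided tests and a threshold of 0.05. The 5 comparisons were KKO with WT at each time, their difference (interaction), and 48 h with 24 h in each genotype. The fit was tested on simulated data with known changes. CPM used the TMM-scaled totals, and CPM per kb used the longest transcript of GENCODE M21 (GRCm38).

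The members, the 12 gene lists (137 genes, from textbook knowledge), the tests and the alternatives were chosen with earlier results of these data known. Values are named for synthetase genes that were called, up to 20 a comparison in order of p, and for each other list the called members with the largest changes (up to 4), or, with none called, the one of smallest p. Genes outside this rule were named after their values were seen. The values of 1 synthetase gene are not reported here, and it enters the counts and medians only. The alternatives tried were 2 scalings (upper-quartile and RLE), 2 tools (limma-voom of limma 3.58.1 and DESeq2 1.42.0), no filter on low counts, a filter of 1 CPM in 6 libraries, fits of the compared libraries alone, the replicate number as a block, stricter thresholds, and leaving out libraries. The labels do not say what replicate numbers mark. Deviations from the group means (log2 of CPM plus 0.5) of same-numbered libraries correlated at 0.175, 0.141 and 0.431 across time in WT, all over 0.1, so the numbers were taken to pair the WT libraries. The main fit did not use this pairing, which enters only the alternative with the replicate number as a block. Correlations between differently numbered libraries were not computed, so this pairing was not checked against mismatched numbers. The same-numbered deviations correlated at 0.0435, 0.107 and 0.0394 across time in KKO, at -0.371, 0.135 and 0.157 between genotypes at 48 h, and at -0.41, -0.0473 and 0.309 at 24 h. In KKO the library with Xist and Y-linked transcripts side by side was replicate 1 at 24 h and replicate 3 at 48 h.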

Additional observations from a re-analysis of the deposited data

How the results depend on the processing

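The count of synthetase genes called for KKO against WT at 24 h was 0 in every alternative. At 48 h it was 2 in the complete fit and with both other scalings, DESeq2, limma-voom and the stricter filter. It was 1 with no low-count filter, and 0 with only the 6 libraries compared, without the pair of KKO libraries with Xist and Y-linked transcripts side by side, at an adjusted p under 0.01, or with at least a 1.5-fold change. Leaving out a library gave 0 to 16 calls, with 16 without KKO replicate 2 at 48 h. For the interaction DESeq2 called 1 gene, and leaving out a library gave 0 to 9. For 48 h against 24 h, at least a 1.5-fold change was met by 2 genes in KKO and by 3 in WT. Leaving out a library gave 21 to 27 calls in KKO and 18 to 25 in WT. With the promoter window ending at the transcript start, 3 cytosolic promoters held the C/EBP-ATF composite. The cause of these shifts was not tested.

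With the replicate number as a block, the counts were 0 at 24 h, 2 at 48 h, 0 for the interaction, 22 for time in KKO and 22 for time in WT. Farsb lost its call in WT (adjusted p = 0.0898), Iars gained one there (adjusted p = 0.0463), and Rars lost its call in KKO, where the numbers are not shown to pair libraries (adjusted p = 0.0526). Apart from the stricter thresholds, 20 of the 23 genes called across time in KKO and 16 of the 22 in WT kept their call in all alternatives. None of the called genes reversed its direction in any alternative. The other scalings moved the median of all tested genes by less than 0.1 on the log2 scale. With 3 libraries a group, changes of the size of the standard errors were not detectable.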
